A study of Rattus norvegicus with 8 samples.

Results

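The genes described here are 10 components of the Toll-like receptor and NF-kB response: the receptors Tlr2 and Tlr4, the adaptor Myd88, the transcription factor subunit Nfkb1, the inhibitors Nfkbia and Tnfaip3, the cytokines Tnf and Il1b, and the inflammasome components Nlrp3 and Casp1. They were taken as all non-control probes whose gene name on the array equals a listed symbol. The array held probes under 9 of the 10 names, 18 probes among 46883, out of 25512 gene names in all. The livers came from male Sprague Dawley rats, an outbred laboratory strain, of 180 to 200 g per the labels. The study set 4 samples from rats kept for 12 weeks on a diet labelled as 60% high fat against 4 from rats on a normal diet, called control here. No genotype change or drug is given for either group, and the labels give no age and do not say whether the figure of 60% refers to energy or to weight. Each sample was whole liver RNA on 1 single-colour Agilent array. Whether the samples are separate animals is not said outright in the labels, so the p-values rest on a spread between samples that may be technical. In whole liver, fewer cells of a type and less RNA per cell cannot be told apart.

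Toll-like receptors sit on or inside cells and recognise microbial products. Tlr4 responds to bacterial lipopolysaccharide and Tlr2 to bacterial lipoproteins, and both signal through the adaptor Myd88 to kinases that release NF-kB from its inhibitor IkB alpha, the product of Nfkbia. NF-kB then switches on inflammatory genes, among them Tnf, Il1b and its own inhibitors Nfkbia and Tnfaip3. Interleukin 1 beta is made as a precursor that caspase 1 cleaves inside the inflammasome, whose sensor is Nlrp3. In liver the resident macrophages, the Kupffer cells, carry much of this pathway.

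No member passed the threshold of an adjusted p under 0.05 in either direction. Of the 8 members bright enough to test, 7 had lower means on the high-fat diet and 1, Myd88, had a higher one. The lowest means relative to control were those of Tnf (log2 difference -0.79, 95% interval -1.61 to 0.04), Tlr2 (-0.67, interval -1.20 to -0.14) and Casp1 (-0.48, interval -0.82 to -0.15). Il1b was at -0.02 (interval -0.67 to 0.63), with the same SD in both groups. Nlrp3 was not well above background on most arrays, and no probe carried the name Tnfaip3.

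Every level below is a normalized log2 intensity, the log2 signal of a probe minus the 75th percentile of the reliably detected probes of the same array, so that 0 is the level of that percentile. Every difference is high-fat minus control on that log2 scale. Levels of different probes are not compared, because probes differ in brightness for the same amount of RNA. Tests were made with limma over all 31535 probes that were well above background on at least 4 arrays, and adjusted p-values are by Benjamini-Hochberg over all of them.

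Each probe is an oligonucleotide of 60 bases. The sequences of 6 of the members' 18 probes follow, taken from Casp1 (both probes), Tlr2, Nfkbia, Il1b and Nlrp3. For Tlr2, Il1b and Nlrp3 the sequence is that of the dimmer probe, not of the brighter one described first for the gene below. Files place the second Casp1 probe on rn4 at chr8:2032917-2032976 on the plus strand and the Nfkbia probe at chr6:75730438-75730497 on the minus strand. Exon and UTR annotation of that build was not used here.
Casp1, probe GT_Rn_GE_00167171: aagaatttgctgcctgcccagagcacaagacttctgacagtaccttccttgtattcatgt
Casp1, probe A_44_P468258: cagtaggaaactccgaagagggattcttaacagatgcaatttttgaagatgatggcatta
Tlr2, probe GT_Rn_GE_00237033: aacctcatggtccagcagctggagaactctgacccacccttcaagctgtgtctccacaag
Nfkbia, probe A_44_P261450: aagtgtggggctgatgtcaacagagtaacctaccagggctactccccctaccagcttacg
Il1b, probe GT_Rn_GE_00198460: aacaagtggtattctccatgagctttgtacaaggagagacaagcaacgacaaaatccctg
Nlrp3, probe GT_Rn_GE_00159664: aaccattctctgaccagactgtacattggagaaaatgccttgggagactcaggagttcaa

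All 8 arrays lay on 1 slide and were scanned on 1 day, both diets having 2 arrays in either of the slide's 2 rows. The share of probes well above background ran from 50.4% on control replicate 1 and 56.3% on high-fat replicate 1 to 71.9% on control replicate 4. Over probes, arrays correlated at 0.952 to 0.984 within control, 0.968 to 0.982 within high fat and 0.951 to 0.983 between the diets. The hepatocyte markers Alb (7.22 ± 0.20 in control, 7.13 ± 0.18 on high fat; SD, n = 4 each), Apoa1 and Apob were bright on every array, as the tissue label says. Over all 18587 genes tested, 163 (0.877%) passed the threshold, 65 higher and 98 lower on high fat. At an unadjusted p under 0.05 the share was 15.6% of genes, and in 11.1% the 4 values of one diet did not overlap those of the other, with high fat the lower in 6.24%. The median difference of all tested genes was 0.004, and 49.4% of them were below 0.

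The brighter probes of the receptors Tlr2 and Tlr4 gave differences of -0.67 and -0.33, and their dimmer probes -0.43 and -0.44. The brighter Tlr2 probe (A_43_P19763, rn4 chr2:175608160-175608217, minus strand) read -1.79, -2.20, -1.62 and -2.42 on control replicates 1 to 4. On high-fat replicates 1 to 4 it read -2.33, -2.48, -2.85 and -3.04. The lowest control value lay just under the highest high-fat value, and otherwise the diets were apart. Tlr2 averaged -2.01 ± 0.37 in control and -2.68 ± 0.33 on high fat (SD, n = 4 each). The difference of -0.67 (SE 0.23), a level 1.59-fold lower, did not pass adjustment (adjusted p = 0.221, limma). The second Tlr2 probe, whose sequence is given above, averaged -3.40 ± 0.23 and -3.83 ± 0.31, a difference of -0.43 (interval -0.86 to 0.003, adjusted p = 0.326).

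Tlr4, the lipopolysaccharide receptor, was measured by a probe at rn4 chr5:83577410-83577469 on the plus strand. It read -4.80, -4.97, -4.51 and -5.10 in control and -4.72, -5.10, -5.41 and -5.49 on high fat. High-fat replicate 1 lay within the control values and above most of them, and the other 3 high-fat arrays were at or under the lowest control. Means were -4.85 ± 0.25 and -5.18 ± 0.35, a difference of -0.33 (interval -0.81 to 0.14, adjusted p = 0.506). The dimmer Tlr4 probe, well above background on 7 arrays, gave -0.44 (interval -1.0 to 0.12, adjusted p = 0.450).

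Myd88, through which both receptors signal, was the only tested member with a higher mean on high fat. Its brighter probe (rn4 chr8:124299763-124299822, minus strand) read 1.81, 1.94, 2.57 and 2.22 in control and 2.44, 2.36, 2.16 and 2.25 on high fat. The high-fat arrays lay inside the control range. Means were 2.14 ± 0.34 and 2.30 ± 0.12, and the difference was 0.17 (interval -0.25 to 0.58, adjusted p = 0.728). The second probe averaged 0.01 ± 0.24 and 0.31 ± 0.17, a difference of 0.31 that also missed the threshold (interval -0.06 to 0.67, adjusted p = 0.417). On that probe control replicate 3, at 0.36, stood above the other 3 controls, which lay between -0.16 and -0.08.

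Nfkb1 encodes the p105 precursor of the p50 subunit of NF-kB. Its brighter probe read -0.93, -0.66, -0.87 and -0.88 in control and -1.22, -1.14, -0.61 and -0.83 on high fat. High-fat replicates 1 and 2 lay below all controls, and replicate 3 lay above them. The difference was -0.11 (interval -0.49 to 0.26, adjusted p = 0.805). The other Nfkb1 probe (rn4 chr2:233091704-233091763, minus strand) averaged -2.73 ± 0.10 in control and -3.08 ± 0.23 on high fat, a difference of -0.35 (interval -0.69 to -0.01, adjusted p = 0.308). Both estimates were below 0, and whether the probes differ in the size of the change was not tested. The interval of the brighter probe included 0.

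Nfkbia, the NF-kB inhibitor that is itself an NF-kB target, varied more among control samples than between diets. Its brighter probe read 0.89, 0.45, 0.04 and -0.29 in control and 0.05, 0.50, -0.42 and 0.27 on high fat. The ranges overlapped over most of their length. Means were 0.27 ± 0.51 and 0.10 ± 0.39, a difference of -0.17 (interval -0.83 to 0.49, adjusted p = 0.835). The second probe averaged -0.24 ± 0.68 and -0.25 ± 0.52, a difference of -0.01. The sign for Nfkbia turned when single arrays were left out: the brighter probe gave 0.03 without control replicate 1, 0.0009 without high-fat replicate 3 and 0.05 without the 2 dimmest arrays.

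**Figure D1:**
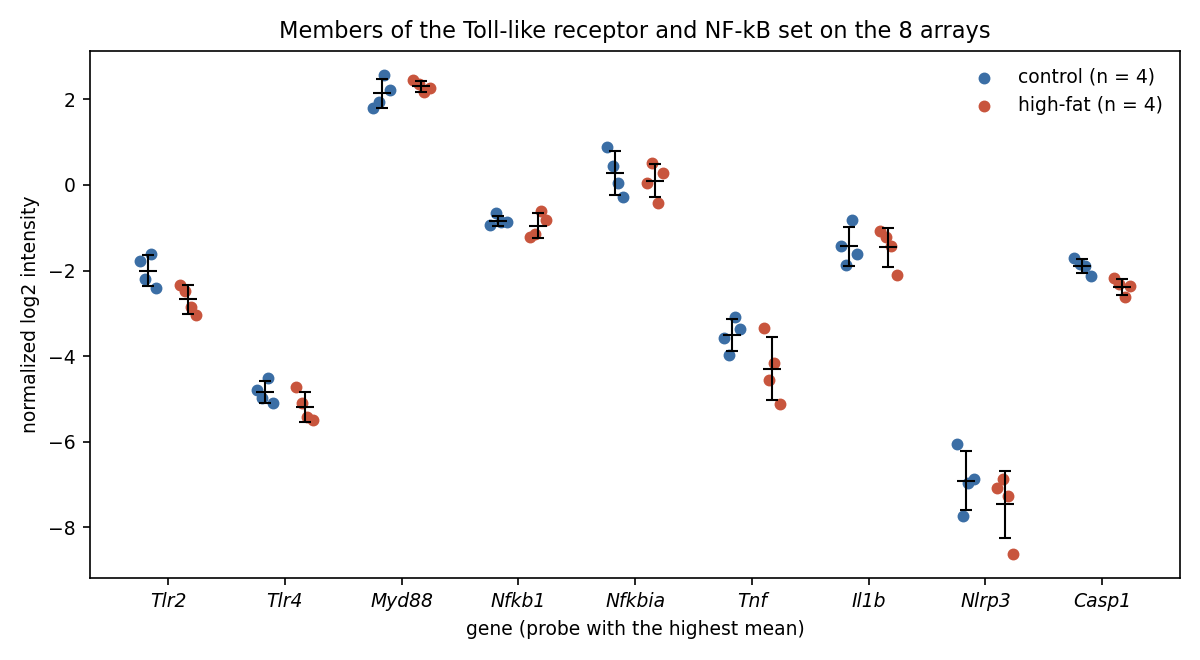
Normalized log2 intensity (vertical axis) of the 9 members found by name, each by its probe with the highest mean; dots are single arrays, with 4 control arrays in blue and 4 high-fat arrays in red, in order of replicate from left to right, and bars are the mean ± SD. Casp1 is the only member whose high-fat dots, at -2.63 to -2.18, all lie under its control dots, at -2.12 to -1.71; positions of different genes on the axis are not comparable.

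Tnf, the cytokine tumour necrosis factor, had the lowest mean relative to control of all members and also the least even measurement. Its brighter probe (rn4 chr20:3663558-3663617, plus strand), spotted at 2 places on each array, averaged -3.59, -3.97, -3.09 and -3.38 in control and -3.35, -4.56, -4.16 and -5.11 on high fat. High-fat replicate 1 lay among the controls and the other 3 lay below all of them. Means were -3.51 ± 0.37 and -4.29 ± 0.74, a difference of -0.79 (SE 0.36, adjusted p = 0.346), or 1.73-fold lower.

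The value of high-fat replicate 1 rested on 2 spots that disagreed. One read -4.59 and the other -2.11, a gap of 2.49 log2 units. On the other 7 arrays the same 2 spots differed by 0.04 to 0.62, and the other members with several spots differed by 0.014 to 0.541 over 24 sets. Of the 5193 probes with several spots on that array, 4 (0.077%) were at least as far apart, against a median gap of 0.153. With the departing spot left out, a choice made after seeing the data, high fat averaged -4.60 ± 0.39 and all 4 high-fat values, -5.11 to -4.16, lay below all controls. The difference was then -1.10 (interval -1.66 to -0.54), 2.14-fold lower, and still missed the threshold (adjusted p = 0.084). What set the departing spot apart was not tested.

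The dimmer Tnf probe did not depend on that spot. It read -5.21, -5.07, -4.34 and -4.84 in control and -6.02, -5.56, -5.30 and -6.32 on high fat, so that no high-fat array reached the lowest control. Its difference of -0.93 (interval -1.55 to -0.32) had the lowest adjusted p of the members' 16 tested probes, 0.160. The probe was not well above background on control replicate 1 or high-fat replicate 1, and with normexp background correction the difference was -0.49.

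**Figure D2:**
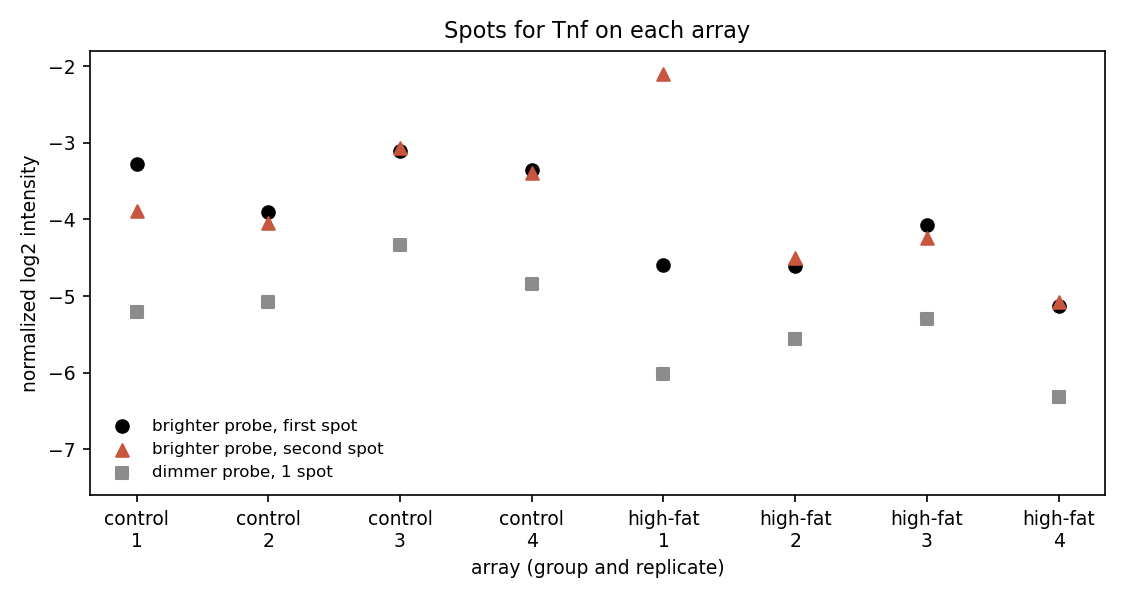
Normalized log2 intensity (vertical axis) of each Tnf spot on each of the 8 arrays (horizontal axis); circles and triangles are the 2 spots of the brighter probe and squares the single spot of the dimmer probe. On high-fat replicate 1 the triangle, at -2.11, stands 2.49 above its circle, at -4.59; elsewhere the pair lies within 0.62.

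Il1b, the interleukin 1 beta precursor, gave the smallest difference of the brighter probes. Its brighter probe (rn4 chr3:116964465-116964524, minus strand) read -1.43, -1.88, -0.83 and -1.61 in control and -1.08, -1.23, -1.43 and -2.11 on high fat. The highest value was a control array and the lowest a high-fat array, with the rest mixed. Means were -1.44 ± 0.45 and -1.46 ± 0.45 (adjusted p = 0.985). The interval of -0.67 to 0.63 leaves room for a change of up to 1.59-fold down or 1.55-fold up, so the missed threshold does not show equal levels. The second Il1b probe gave -0.11 (interval -0.81 to 0.59, adjusted p = 0.906). The sign of the brighter probe turned to 0.18 without control replicate 3 and to 0.19 without high-fat replicate 4.

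Casp1, the protease that cleaves the interleukin 1 beta precursor, was the member with the most even values. Its brighter probe read -1.71, -1.85, -1.90 and -2.12 in control and -2.18, -2.33, -2.63 and -2.37 on high fat. Every high-fat array was below every control array, by a gap that at its narrowest was small beside the SD of either group. Means were -1.89 ± 0.17 and -2.38 ± 0.19, a difference of -0.48 (SE 0.15), 1.40-fold lower (interval 1.11 to 1.77). Casp1 had the lowest adjusted p of the 8 tested members, 0.177, which is not a call. The second probe read -3.04, -3.30, -3.11 and -3.06 in control and -3.38, -3.42, -3.42 and -3.57 on high fat, again with no overlap. It gave -0.32 (interval -0.60 to -0.05, adjusted p = 0.247).

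Nlrp3, the inflammasome sensor, was too dim to test. Its brighter probe (placed by the files at rn4 chr10:45873953-45874157, plus strand) was well above background on 3 arrays: control replicate 4 and high-fat replicates 2 and 3. The second was so on 1 array, high-fat replicate 2. Measured values of the brighter probe were -6.05, -7.73, -6.96 and -6.87 in control and -7.08, -6.87, -7.27 and -8.62 on high fat, which are readings at or near background and carry no fold. Tnfaip3, the ubiquitin-editing inhibitor A20, had no probe of that name. The gene ID that RefSeq now pairs with Tnfaip3 stands on the array under the older name LOC683206 with 2 probes, found outside the rule. One was well above background on 1 array, high-fat replicate 3, and the other on none.

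**Figure D3:**
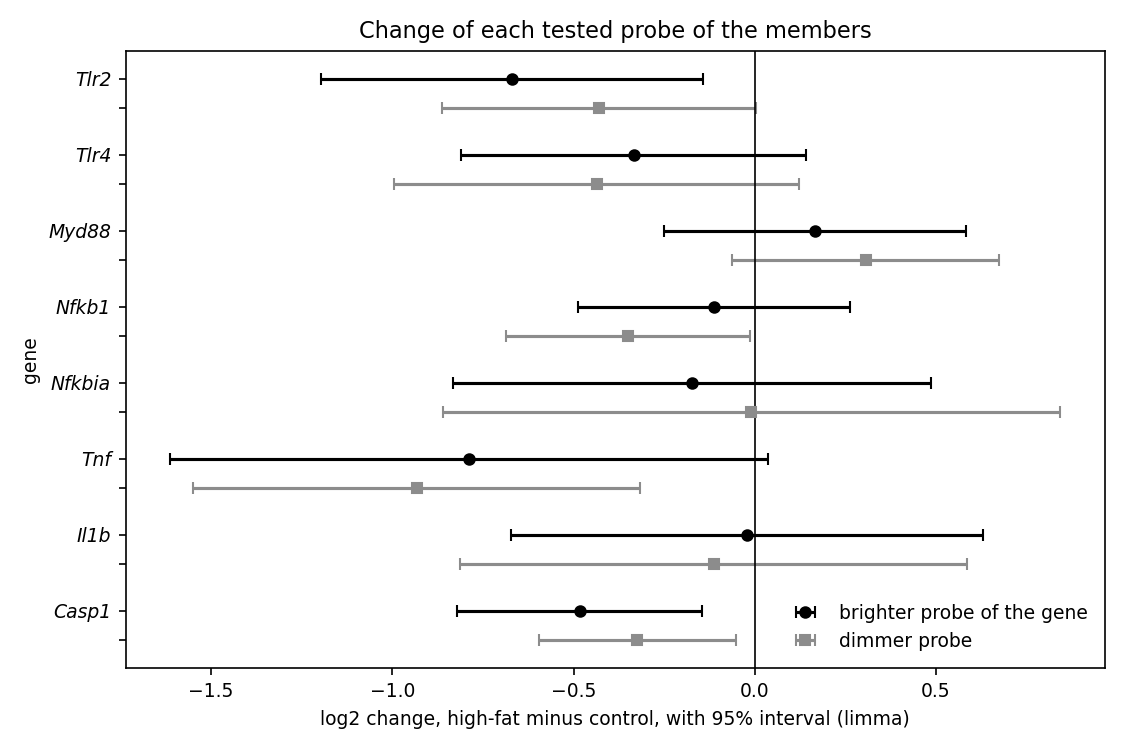
Log2 difference, high-fat minus control (horizontal axis), for the 16 tested probes of 8 members (vertical axis), with the 95% interval from limma over 4 arrays a group; black circles are the brighter probe of each gene and grey squares the dimmer. All pairs share their sign, 14 probes lie below 0 and the 2 of Myd88 above, and no probe passed adjustment.

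Across the members, 0 of 8 were called, beside 0.877% of all tested genes, and among so few genes a count of 0 cannot be told from that share. At an unadjusted p under 0.05 there were 2 of 8 members (25%), Tlr2 and Casp1, against 15.6% of all tested genes. That count was 1 without control replicate 3 or without high-fat replicate 4, and 4 without high-fat replicate 1. Groups did not overlap, high fat being lower, for 1 of 8 (12.5%), Casp1, against 6.24% of all genes. With so few members these shares are near the background. The median difference of the 8 was -0.25, against 0.004 over all tested genes, whose middle 50% ran from -0.21 to 0.21. Both probes of a member had the same sign in 8 of 8, though the second Nfkbia probe, at -0.01, lay almost at 0. The probes of a gene were read on the same samples, so a shared sign is not a replication. By the brighter probes, the largest rise that a member's interval allowed was 1.55-fold, for Il1b, and the largest fall 3.06-fold, for Tnf. The interval of the second Nfkbia probe reached higher, to 0.84 on the log2 scale.

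Members tended to be high or low on the same arrays within a diet. Control replicate 3 was the highest control for 5 of 8 members, Tlr2, Tlr4, Myd88, Tnf and Il1b. High-fat replicate 1 was the highest of its diet for 6 of 8, all but Nfkb1 and Nfkbia, and for 5 of 8 without the departing Tnf spot. High-fat replicate 4 was the lowest of its diet for 4, the receptors Tlr2 and Tlr4 and the cytokines Tnf and Il1b. The members' values thus do not count as independent of each other.

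The members' differences were also taken within each row of the slide, where row and sample cannot be told apart. In row 1, with 2 arrays of each diet, the median difference of the 8 members was -0.28, and in row 2, with the other 2 and 2, it was -0.52. Casp1 was alike in both rows, at -0.48 and -0.49. Tlr2 was lower in both, by -0.41 and -0.93, as was Tnf, at -0.18 and -1.40, where row 1 holds the departing spot. Il1b was 0.50 in row 1 and -0.55 in row 2, and Myd88 0.53 and -0.19. In all, 4 of 8 members, Tlr2, Tlr4, Tnf and Casp1, had the same sign in both rows. The difference between rows was not tested.

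**Figure D4:**
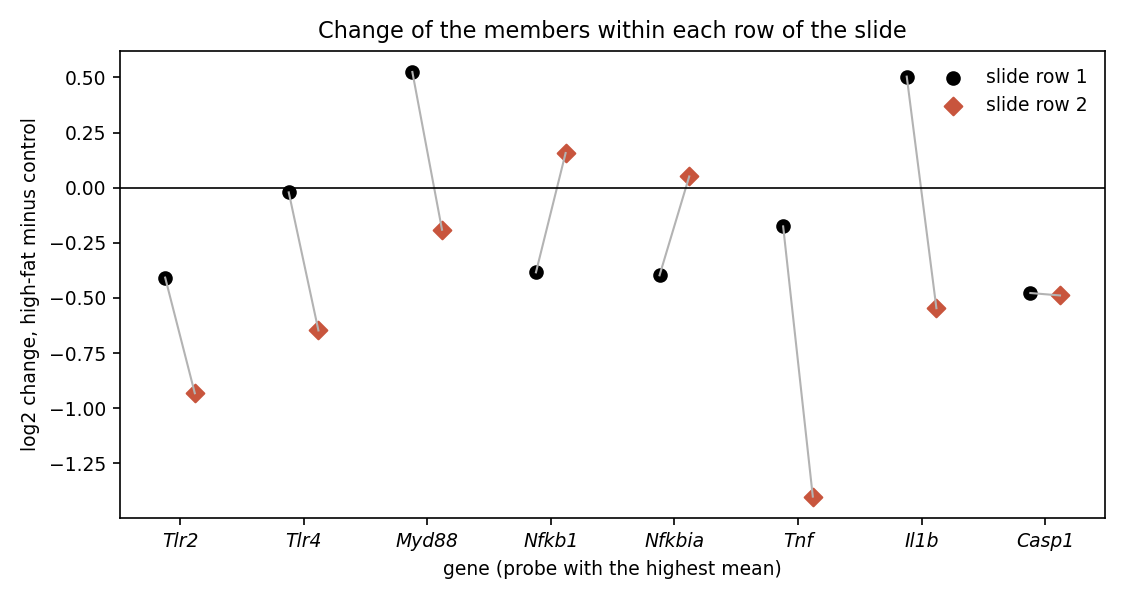
Log2 difference, high-fat minus control (vertical axis), of each of the 8 tested members within slide row 1 (black circles) and slide row 2 (red diamonds), each from 2 arrays a diet and with no error bar; grey lines join the rows of a gene. The Casp1 pair is nearly level at -0.48 and -0.49, while Il1b goes from 0.50 to -0.55.

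Markers of Kupffer cells and other macrophages, which express many of the members, mostly had lower means as well. Of 20 listed markers 18 were tested, none was called, 16 of 18 had lower means on high fat and the median difference was -0.30. At an unadjusted p under 0.05, 6 of the 18 were lower and 1 higher, against 15.6% of all tested genes in either direction. Cd68, a lysosomal macrophage protein, gave -0.26 (adjusted p = 0.613), Clec4f, a Kupffer cell lectin, -0.60 (0.181) and Vsig4, a complement receptor of Kupffer cells, -0.78 (0.178). The log2 of the summed macrophage signal was 5.88 to 6.38 on the control arrays and 5.44 to 6.02 on the high-fat arrays. High-fat replicate 1 was the highest of its diet, as for most members. On other arrays the order differed. The highest control was replicate 1, while 5 of 8 members were highest on replicate 3, at 6.32. The lowest high-fat array was replicate 3, while 4 members were lowest on replicate 4, at 5.53. Within the slide rows the macrophage median was -0.03 in row 1 and -0.59 in row 2. The part of the macrophage signal in the members' values was not tested.

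Markers of the other liver cell types were read in the same way. The summed hepatocyte signal was 9.78 to 10.23 in control and 9.88 to 10.14 on high fat, and none of its 13 markers was called. Of 12 neutrophil markers 7 were tested and none was called, with a median difference of 0.15. The granulocyte proteins S100a8 and S100a9 were at 0.22 and -0.24, and Mpo and Elane were too dim to test. Of 16 lymphocyte markers 15 were tested. Cd3g, a chain of the T cell receptor complex, fell by 1.44 log2 units (adjusted p = 0.042), no other was called, and the median was -0.22. Among other chains of that complex, Cd3d was at -0.69 (adjusted p = 0.076) and the dim Cd3e at 0.02 (0.983). Of the lymphocyte list, 9 genes were below 0 and 6 above. The summed lymphocyte signal, over 14 of them, was 0.09 to 0.69 in control and -0.33 to 0.37 on high fat. Of 10 stellate cell markers 9 were tested and 2 were called, both higher on high fat. Lrat, the enzyme that stores vitamin A as retinyl esters, was not well above background on any control array. It averaged -1.87 ± 0.50 on high fat, at least 70.4-fold higher. This fold takes each control array at its lowest signal well above background, or at the probe's reading where that was higher. Lrat entered the test through the high-fat arrays alone. Its adjusted p of 0.004 (limma) takes the background readings of the control arrays as levels. Reln, a secreted glycoprotein, averaged -1.31 ± 0.15 in control and 0.03 ± 0.14 on high fat (adjusted p = 0.015). The summed stellate signal did not overlap between the diets, at 1.83 to 2.17 in control and 2.22 to 2.84 on high fat. Over the other 7 genes it did overlap, at 1.65 to 2.04 and 1.79 to 2.52. Of those 7, Des was at -0.70 (adjusted p = 0.127) and Acta2 at -0.52 (0.191), both lower without overlap. The stellate median was 0.08, with 4 genes below 0 and 5 above. Of 8 sinusoidal endothelial markers 7 were tested and none was called, with a median of -0.18 and summed signals of 3.08 to 3.92 and 3.53 to 4.01. The scavenger receptor Stab2 was at 0.60 (adjusted p = 0.162) and the hyaluronan receptor Lyve1 at 0.96 (0.071), both without overlap. Clec4g was at -0.58 (0.212) and Vwf at -0.57 (0.167), Vwf also without overlap but lower on high fat. In all, 4 of these markers were below 0 and 3 above. Erythroid markers had a median of 1.05 over 5 genes with none called, and summed signals of 4.81 to 6.17 and 6.17 to 6.84. The part of these cell types in the members' values was not tested either.

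The wider pathway was read from 6 lists holding 131 other genes, of which 120 were on the array and 109 were tested. One was called, lower on high fat, and none higher. At an unadjusted p under 0.05, 10 were higher and 16 lower (23.9% of 109 together, against 15.6% of all tested genes). The median difference was -0.02, with 59 genes below 0 and 50 above. The members' median was -0.25 and that of all tested genes 0.004.

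Receptors and co-receptors, 10 tested of 15, had a median of -0.13 and no call. The lowest p was that of Lbp, the plasma protein that carries lipopolysaccharide to the receptor complex, which averaged 0.81 ± 0.49 in control and 0.01 ± 0.22 on high fat (difference -0.80, adjusted p = 0.181). Ly86, which pairs with the receptor-like protein Cd180, was at -0.44 (0.289), Tlr7, a receptor for single-stranded RNA, at 0.35 (0.369) and Tlr5, the flagellin receptor, at -0.20 (0.730).

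Adaptors and kinases, 18 tested of 21, held the one call. Sarm1, a Toll/interleukin 1 receptor domain protein known as a brake on adaptor signalling and as an NAD-cleaving enzyme of neurons, read -2.63, -1.87, -1.37 and -1.86 in control and -3.30, -3.74, -3.77 and -4.24 on high fat, with no overlap. It fell by 1.83 (log2; interval -2.49 to -1.17, adjusted p = 0.038), and its second probe fell by 1.69 (adjusted p = 0.044). The Sarm1 call was lost in 9 of 23 alternative settings, 6 of them with 1 array left out, with adjusted p between 0.015 and 0.124 over all 23, while the difference stayed between -2.22 and -1.56. The other adaptors and kinases had a median near 0 (0.02 for the list). Of those, Ticam2, the bridging adaptor of Tlr4, was at -0.53 (0.196), and the interferon regulatory factors Irf7 and Irf5 were at -0.95 (0.213) and -0.72 (0.216). Ticam2 was dim, at -6.59 ± 0.27 in control.

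NF-kB subunits, IkB kinases and inhibitors, 18 tested of 22, had the highest of the 6 list medians, 0.18, with 0 calls. Ikbkb, the kinase that marks IkB for destruction, averaged -0.64 ± 0.08 in control and -0.30 ± 0.11 on high fat without overlap (difference 0.34, adjusted p = 0.228). Tax1bp1, a partner of A20, was at 0.44 (0.333), Nfkbib, the inhibitor IkB beta, at 0.30 (0.370) and Nfkbiz, a nuclear IkB protein, at -0.81 (0.443).

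Inflammasome and interleukin 1 genes, 22 tested of 24, had a median of -0.23, like the members, and 0 calls. At an unadjusted p under 0.05, 2 of the 22 were higher and 6 lower, against 15.6% of all tested genes in either direction. Gsdmd, the pore protein that caspase 1 cleaves, averaged 1.5 ± 0.19 in control and 0.91 ± 0.19 on high fat, without overlap (difference -0.59, adjusted p = 0.122). Il1rn, the antagonist of the interleukin 1 receptor, was at -1.34 (0.203). The sensors Nlrp1a and Nlrp12 had higher means, by 0.63 (0.076) and 0.78 (0.181). Nlrp1a was dim, at -7.27 ± 0.14 in control and -6.64 ± 0.15 on high fat, readings near background.

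In tumour necrosis factor signalling, 14 tested of 17, the median was -0.03 with 0 calls. Ltb, lymphotoxin beta, was at -0.73 (adjusted p = 0.180) and Ripk1, a kinase of the receptor complex, at 0.39 (0.190). Tnfsf10, the death ligand TRAIL, was at 0.79 (0.323) but dim, at -7.51 ± 0.44 in control. The receptor Tnfrsf1b was at -0.63 (0.487). Inflammatory targets of NF-kB, 27 tested of 32, had a median of -0.02 and 0 calls. At an unadjusted p under 0.05, 4 of the 27 were higher and 3 lower, against 15.6% of all tested genes in either direction. Cxcl1, a neutrophil chemokine, averaged -1.43 ± 0.28 in control and -2.94 ± 0.61 on high fat without overlap (difference -1.52, adjusted p = 0.062). Ier3, an immediate early gene, went the other way, from 1.23 ± 0.22 to 2.33 ± 0.45 (1.10, adjusted p = 0.076). Vcam1, an endothelial adhesion protein, and Mmp9, a matrix protease, had higher means by 0.79 (0.177) and 0.87 (0.218). Mmp9 was dim, at -6.71 ± 0.32 in control. Cxcl1 and Ier3 were both called with normexp background correction, with probes well above background on all 8 arrays, and with a variance trend.

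**Figure D5:**
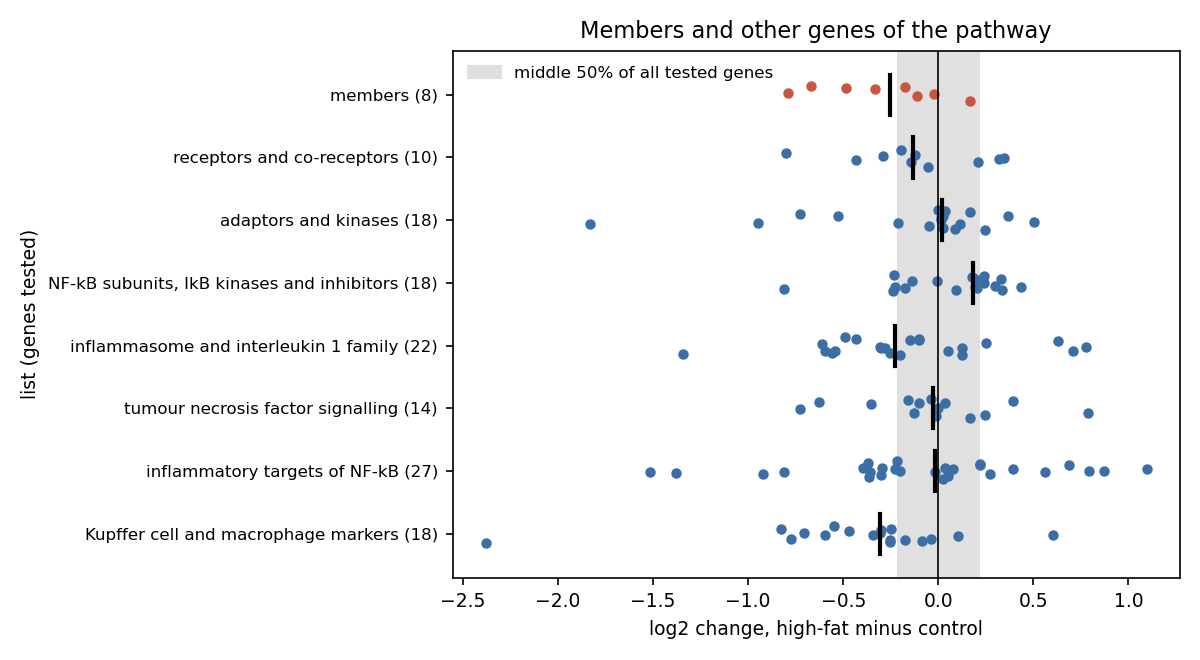
Log2 difference, high-fat minus control (horizontal axis), of each tested gene (dot) of the members (red), the 6 pathway lists and the macrophage markers (blue), with the number tested in parentheses; black bars are list medians and the grey band is the middle 50% of all tested genes, -0.21 to 0.21. The medians of the members (-0.25), the inflammasome list (-0.23) and the macrophage markers (-0.30) lie at or beyond the lower edge of the band, and that of the NF-kB list (0.18) near its upper edge.

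The members' promoters were searched for the NF-kB binding motif, the kappa B consensus, on both strands. The window ran from 250 bases before to 50 bases after the gene start in the RefSeq table (GRCr8). All 10 members matched an entry. At least 1 match was found in 4 of the 10, against 7.5% of the 33469 promoters of that length in the table. The members were listed as genes of the NF-kB response, some of them its targets. The share over all promoters is therefore no independent yardstick for them. Tlr2 held 3 matches, of which 2 overlap, Tnfaip3 3, Nfkbia 1 and Nfkb1 1. A match is a description of letters, not evidence of binding. The other 6 members hold no match of these letters in this window. The 250 bases before the start are given for the 2 tested members with a match there, with the matched bases in capitals, on GRCr8 at chr2:171504558-171504807 and chr6:78597073-78597322, both on the minus strand.
Tlr2: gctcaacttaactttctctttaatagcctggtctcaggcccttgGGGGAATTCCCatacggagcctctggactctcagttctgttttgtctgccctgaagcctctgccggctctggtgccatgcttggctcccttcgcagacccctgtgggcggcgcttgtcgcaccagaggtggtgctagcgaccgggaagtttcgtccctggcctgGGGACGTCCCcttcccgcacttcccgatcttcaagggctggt
Nfkbia: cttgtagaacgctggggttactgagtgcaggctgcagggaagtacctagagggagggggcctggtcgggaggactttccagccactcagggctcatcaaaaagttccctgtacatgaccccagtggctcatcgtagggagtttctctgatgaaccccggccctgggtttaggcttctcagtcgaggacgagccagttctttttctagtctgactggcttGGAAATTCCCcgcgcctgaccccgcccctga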

How the data were processed

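Per the file headers, Agilent Feature Extraction 10.7.3.1 produced the spot intensity of each array, and probe coordinates are on rn4. Per the labels, Cy3-labelled cRNA was made from 500 ng of total RNA with an oligo-dT primer. The values the authors deposited as a table are on a log2 scale, and how they were scaled is not given in the sources used here. They followed the scanner values less each array's 75th percentile over every non-control probe (correlation at least 0.999), with column medians of -3.21 to -3.10.

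The processed signal of each of 58717 non-control spots, outlier flags left out, was taken to log2, less the array's 75th percentile over probes that were well above background on every array (47.9% of probes), and spots of a probe were averaged. The processed signal has the background already subtracted, which spreads dim probes. No spot was saturated. A probe counted as well above background on an array if at least 50% of its spots were, and was tested if so on at least 4 arrays. Differences were fitted with limma 3.58.1 (lmFit, eBayes; R 4.3.3) without covariates, and the code was tested on simulated data. Genes were taken by their names on the array, and each was represented by the brightest of its tested probes. A pathway or marker gene not found by its array name was looked up by its current name in the RefSeq table (GRCr8). A list's summed signal is the log2 of its linear sum. The number of arrays limits the precision.

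The members and lists were chosen with earlier results of these data known. The text names every member, up to 4 tested genes of each pathway list with the smallest p and any past the threshold, and the first markers of the cell types named. Cd3g, Lrat and Reln were named as the calls of their marker lists. Vwf, Des and Acta2 were named as endothelial or stellate markers that were lower on high fat without overlap. Alternatives covered background, scaling, filter, probe summary, the authors' table, variance model, array weights, replicate and slide row blocks, threshold and each array left out. The deviations of same-numbered replicates correlated weakly or not at all (-0.12, 0.26, 0.23 and 0.01). The numbers were not taken as pairs in the main fit, and the replicate block among the alternatives took them so.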

Additional observations from a re-analysis of the deposited data

Results flagged for a closer look

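Among 66 sets of 4 arrays, formed within a diet by the members' probes, the called Sarm1 probes and the summed signals of the gene lists, 2 held an array far from the other 3, and chance gives about 1 in 20. The dimmer Tlr4 probe read -6.34 on high-fat replicate 4, against -5.87 to -5.78 on the other high-fat arrays. The dimmer Myd88 probe read 0.36 on control replicate 3, against -0.16 to -0.08 on the other controls.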

How the results depend on the processing

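The count of 0 called members held in all 23 alternatives, and their median difference stayed between -0.39 and -0.23. Casp1, Tlr2, Tlr4, Tnf, Nfkb1 and Myd88 kept their sign in all 23, within -0.56 to -0.40 for Casp1, -0.81 to -0.54 for Tlr2, -0.49 to -0.22 for Tlr4, -1.19 to -0.52 for Tnf, -0.23 to -0.02 for Nfkb1 and 0.01 to 0.31 for Myd88. With 1 array left out, Nfkb1 went to -0.023 without high-fat replicate 1, and Myd88 to 0.057 without control replicate 1 and 0.313 without control replicate 3. Members at an unadjusted p under 0.05 numbered 1 to 4 with 1 array left out and 2 to 3 otherwise. Nfkbia turned to 0.034 without control replicate 1, 0.0009 without high-fat replicate 3 and 0.050 without the 2 dimmest arrays, and Il1b to 0.182 without control replicate 3 and 0.194 without high-fat replicate 4. With 1 array left out, Nfkbia ran from -0.36 to 0.034 and Il1b from -0.17 to 0.194. The cause was not tested. Of pathway genes, 1 was called, against 3 with normexp, 3 with probes well above background on all 8 arrays, 3 with a variance trend, 3 with array weights, 4 at a threshold of 0.10, 0 without a filter, 0 with the replicate block, 0 with slide row as a block, and 0 to 2 with 1 array left out. Of all genes, 163 were called, against 253 with normexp, 5 without a filter, 331 with probes well above background on all 8 arrays, 326 with a trend, 1 with the replicate block, 98 with slide row as a block, 504 at a threshold of 0.10, 14 without the 2 dimmest arrays (added after seeing the data) and 16 to 89 with 1 array left out. Array weights called Nlrp1a and Ier3 besides Sarm1, and leaving out high-fat replicate 1 called Irf7. Low signal over background limits Nlrp3 and the dimmer probes of Tnf and Tlr4. It also limits the pathway genes Nlrp1a, Tnfsf10, Mmp9 and Ticam2. The lowest reading well above background ran from -8.98 on high-fat replicate 2 to -6.63 on control replicate 1.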
